A study of Homo sapiens with 6 samples.

Results

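The genes described here set the pace of G1, the phase of the cell cycle before DNA is copied. They are the D-type cyclins CCND2 and CCND3, their kinases CDK4 and CDK6, the inhibitors CDKN2A, CDKN2B, CDKN2C, CDKN1A and CDKN1B, and the retinoblastoma gene RB1. They were taken by gene symbol and make 10 of the 58735 genes of the expression table. The third D-type cyclin, CCND1, lies in the chromosome 11q13 region and is given only for comparison. Of these 10 genes, 9 reached the mean of 1 FPKM needed for testing (FPKM, a level scaled for gene length and depth), and CCND2 did not.

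RNA sequencing was done on 6 libraries of SW480, an established line from a human colorectal adenocarcinoma, grown in Leibovitz's L-15 medium with FBS without added CO2. By their labels, 3 libraries carry DDX39B overexpression and 3 are wild-type controls. DDX39B encodes an RNA helicase of splicing and mRNA export, and the comparison asks which genes respond to more of it. The sources used here do not say how it was overexpressed, whether the cells were 1 clone or whether the libraries came from separate cultures, so p-values measure only the spread between these libraries, which may be technical.

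The targeted gene went against the labels. DDX39B was at 15.0, 13.9 and 14.0 FPKM in the libraries labelled overexpression and at 39.3, 34.6 and 41.9 FPKM in those labelled control. Groups are named overexpression-labelled and control-labelled for this reason, and directions follow the labels. Depth was even, at 16963075 to 17463697 reads per library, but the scaling of FPKM ran with the label, as given under the processing. Markers of the labelled cell type also differed between the groups. Of 10 colon epithelial markers, 6 were tested and all 6 were higher in the overexpression-labelled libraries, and the summed level of the 10 was 1478 to 1496 FPKM there against 358 to 430 FPKM. Most of that sum, in both groups, was the keratins KRT8, at 681 against 179 FPKM on average, and KRT18, at 610 against 202 FPKM. CDX2, a transcription factor that defines intestinal epithelium, had 4.48 to 4.97 FPKM under the overexpression label and 0 reads in the controls, while CDX1 was at 0 in all 6. KRT20, below the filter, ran the other way, with 6 reads over the overexpression-labelled libraries and 80 over the controls. The adhesion molecule EPCAM was at 171 ± 3.6 against 2.72 ± 0.67 FPKM (SD, n = 3 each). Of the leukocyte markers, CD3D, MS4A1 and FCGR3A were at 0 in all 6 libraries, and none of the 12 was tested. The sum over the 12 was low, at 1.65 to 2.60 FPKM under the overexpression label against 1.12 to 1.26 FPKM. Fibroblast markers summed to 1.54 to 1.67 against 4.42 to 8.30 FPKM, with COL1A1 lower. LUM, a fibroblast marker below the filter, ran the other way, with 29 reads over the overexpression-labelled libraries and 1 over the controls. Endothelial markers summed to 1.06 to 1.48 against 36.2 to 50.7 FPKM, while KDR and EMCN were at 0 in all 6. In the controls nearly all of that sum was ESAM, at 0.678 FPKM on average under the overexpression label and 43.5 FPKM in the controls. VWF, also below the filter, was at 0.586 FPKM on average under the overexpression label and 0.0462 FPKM in the controls. The summed levels of the epithelial, leukocyte, fibroblast and endothelial markers ran with the label in every library, and their part in the results on the G1 genes was not tested.

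In G1, D-type cyclins bind CDK4 or CDK6, and the paired kinase phosphorylates the RB1 protein, which then lets go of E2F transcription factors and so permits the genes of DNA replication to be read. The INK4 inhibitors, among them the products of CDKN2A, CDKN2B and CDKN2C, bind CDK4 and CDK6 and keep the D cyclins off. The CIP/KIP inhibitors, among them p21 from CDKN1A and p27 from CDKN1B, act mainly on CDK2 complexes and also help D cyclins and their kinases to assemble. In colorectal cancer CCND1 is a target of Wnt signalling, and CDKN2A is often silenced by methylation of its promoter.

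The sequence upstream of a start site is shown for the 4 genes on which the inhibitor and kinase results turn. They are the INK4 neighbours CDKN2A and CDKN2B and the kinase gene CDK6, the 3 members with the largest falls, and CDKN1A, an inhibitor that was higher. All are from RefSeq on GRCh38.p14, run 5′ to 3′ on the strand of the gene, and end at or shortly before a listed transcript start, without bases that the annotation of the expression table counts as exon. Capitals mark GC boxes, the 6 bases GGGCGG or their reverse complement CCGCCC, to which factors of the SP1 family bind.
CDKN2A, upstream start, chr9:21995325-21995574, minus strand: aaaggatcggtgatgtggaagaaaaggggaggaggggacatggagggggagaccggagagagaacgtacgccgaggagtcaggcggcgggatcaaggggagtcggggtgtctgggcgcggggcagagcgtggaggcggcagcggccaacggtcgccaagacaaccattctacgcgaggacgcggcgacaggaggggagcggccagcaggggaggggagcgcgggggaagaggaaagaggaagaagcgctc
CDKN2B, chr9:22009364-22009555, minus strand: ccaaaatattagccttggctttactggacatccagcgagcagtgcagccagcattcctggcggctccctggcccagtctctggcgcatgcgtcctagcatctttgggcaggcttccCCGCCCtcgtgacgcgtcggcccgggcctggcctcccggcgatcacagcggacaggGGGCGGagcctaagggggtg
CDK6, chr7:92836595-92836823, minus strand: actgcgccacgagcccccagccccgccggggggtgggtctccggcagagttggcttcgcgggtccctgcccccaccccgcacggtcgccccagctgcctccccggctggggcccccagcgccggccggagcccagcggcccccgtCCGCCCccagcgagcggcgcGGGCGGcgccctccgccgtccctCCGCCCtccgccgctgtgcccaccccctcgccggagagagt
CDKN1A, chr6:36678464-36678657, plus strand: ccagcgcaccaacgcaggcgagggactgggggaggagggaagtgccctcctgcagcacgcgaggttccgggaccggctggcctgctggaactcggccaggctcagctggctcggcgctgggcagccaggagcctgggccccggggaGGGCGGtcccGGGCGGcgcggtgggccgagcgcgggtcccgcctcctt

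The table of promoters lists 15 starts for 9 of the 10 genes. The whole 250 bases before the start were 66.8% G or C for CDKN2A, 66.4% for CDKN2B, 80.0% for CDK6 and 76.4% for CDKN1A, against a median of 58.0% over all listed starts. The stretches printed hold 2 GC boxes for CDKN2B, 3 for CDK6, 2 for CDKN1A and none for CDKN2A. Over the whole 250 bases before these starts CDKN1A had 4, and the counts of the other 3 genes were the same. The other listed start of CDKN2A, at 21974857, had 1 in its 250 bases, most of which are exon and are not shown. CDKN2A also encodes ARF, from another reading frame than its INK4 product p16. Which product each start serves was not examined, so the stretch shown is not to be read as that of p16. A GC box, on either strand, was in 42.6% of all 35116 promoter windows of 250 bases, which are longer than most of the stretches printed. E2F motifs (TTTGGCGC, TTTCCCGC, TTTGCCGC and TTTCGCGC, either strand) were in none of the 15 windows and in 2.79% of all promoters, which says only that these letters are not there. The only listed start of RB1, at 48476450, lies inside the gene, which begins at 48303726. The bases before the beginning of RB1 were therefore not searched. Some of the windows of CDKN2C and CCND3 are wholly exon. CDKN2B and CDK6, which were lower, and CDKN1A, which was higher, thus all had GC boxes in the stretch shown.

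Across the table the groups differed in most genes. Of 13972 genes tested, 76.8% passed an adjusted p of 0.05 in limma, 37.5% higher and 39.3% lower in the overexpression-labelled libraries, and 80.1% had no overlap between the groups. Of the 9 tested members 7 passed, 2 higher and 5 lower, and the same number had groups that did not overlap, so the share called was near that background. When the filter was lifted, 33913 genes were tested and 44.5% passed, so that share depends on the filter. The median log2 fold change of the tested members was -0.85, beside -0.03 over all genes tested. RB1 and CDKN1A were higher. CCND3, CDK6, CDKN2A, CDKN2B and CDKN2C were lower, and CDK4 and CDKN1B did not pass. In bulk RNA, fewer cells with a transcript and less of it per cell cannot be told apart.

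**Figure D1:**
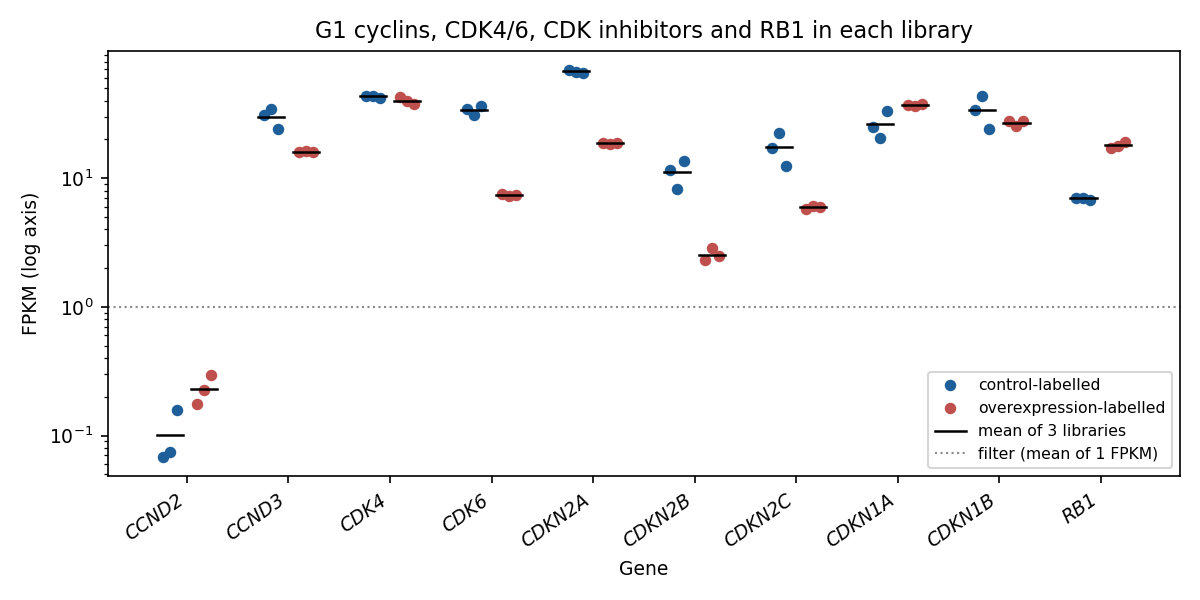
FPKM (log axis) of the 10 genes in each library, with control-labelled libraries in blue, overexpression-labelled libraries in red, a bar at the mean of 3 and a dotted line at the filter of 1 FPKM. CDK6 lies between 31.0 and 36.5 FPKM in the controls and between 7.23 and 7.46 FPKM in the other group, while CDK4 lies between 37.7 and 43.6 FPKM in all 6 libraries.

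CCND3 encodes cyclin D3, the D cyclin most used by lymphoid cells and differentiating tissues. CCND3 (ENSG00000112576, chromosome 6, 41934933 to 42050357, minus strand, GRCh38) measured 16.0, 16.1 and 15.8 FPKM under the overexpression label. Its controls were at 31.0, 34.6 and 24.0 FPKM. The lowest control was above every overexpression-labelled library. Mean levels of 15.97 ± 0.17 and 29.9 ± 5.4 FPKM (SD, n = 3 each) gave a log2 fold change of -0.85 with a standard error of 0.13 (limma, adjusted p = 7.91e-04).

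CCND2 encodes cyclin D2 and was close to the limit of detection. CCND2 (ENSG00000118971, chromosome 12, 4273772 to 4305350, plus strand) had 22, 29 and 38 reads under the overexpression label and 8, 9 and 19 reads in the controls. These are 0.174, 0.224 and 0.297 FPKM against 0.0686, 0.0745 and 0.159 FPKM, and the groups did not overlap. With no filter on low values its log2 fold change was 0.16 and its adjusted p 0.0626 in limma, so no difference was shown at this depth.

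Cyclin D3 was a large part of the D-cyclin RNA under the control label and a small part under the overexpression label. CCND1 was at 666, 655 and 670 FPKM under the overexpression label and 33.8, 30.3 and 34.6 FPKM under the control label, a log2 fold change of 4.30 (limma, adjusted p = 2.03e-08). CCND3 therefore made up 47.3 ± 6.2% of the summed D-cyclin FPKM in the controls and 2.35 ± 0.050% in the overexpression-labelled libraries (SD, n = 3 each). The D-cyclin sum itself was 62.8 ± 3.6 and 680 ± 7.3 FPKM. CCND2 stayed below 0.271% of the sum in every library.

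CDK4 and CDK6 encode the catalytic partners of the D cyclins. CDK6 was lower in the overexpression-labelled libraries and CDK4 did not pass. CDK6 (ENSG00000105810, chromosome 7, 92604921 to 92836594, minus strand) measured 7.46, 7.23 and 7.33 FPKM under the overexpression label and 34.5, 31.0 and 36.5 FPKM under the control label. The groups lay far apart, with a narrow spread in each. Its mean was 4.64-fold lower, at 7.34 ± 0.12 against 34.0 ± 2.8 FPKM (SD, n = 3 each), and its log2 fold change of -2.07 (standard error 0.07) was the most negative of the members (limma, adjusted p = 5.58e-07).

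CDK4 (ENSG00000135446, chromosome 12, 57747727 to 57756013, minus strand) measured 42.5, 39.7 and 37.7 FPKM under the overexpression label and 43.5, 43.6 and 42.2 FPKM under the control label. The groups overlapped, since the first overexpression-labelled library was above the third control. The log2 fold change was -0.11 with a 95% interval from -0.25 to 0.03 and did not pass (limma, adjusted p = 0.127). With array weights, which count libraries by their noise, the log2 fold change of CDK4 was -0.12 (limma, adjusted p = 0.0116), but that setting called 89.6% of all genes tested. Quantile normalization turned the sign of CDK4, to 0.026. CDK4 shares its locus with genes on the opposite strand, and the sources used here do not say whether the counting kept the strand. TSPAN31 was at 4.30 ± 0.30 against 4.19 ± 0.31 FPKM (SD, n = 3 each). MARCH9 was at 9.74 ± 0.55 against 2.63 ± 0.38 FPKM, higher in the overexpression-labelled group.

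Within a library, CDK4 was 5.70, 5.49 and 5.14 times CDK6 under the overexpression label and 1.26, 1.41 and 1.16 times CDK6 in the controls. The difference in the log2 ratio was 2.08, and the exact two-sided permutation test gave p = 0.1, the smallest that 3 against 3 libraries allow (0.167 adjusted over the 5 ratios examined). CDK6 made up 44.1 ± 2.4% of the summed CDK4 and CDK6 FPKM in the controls and 15.5 ± 0.69% in the other group, and the sum was 77.1 ± 2.1 against 47.3 ± 2.5 FPKM.

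**Figure D2:**
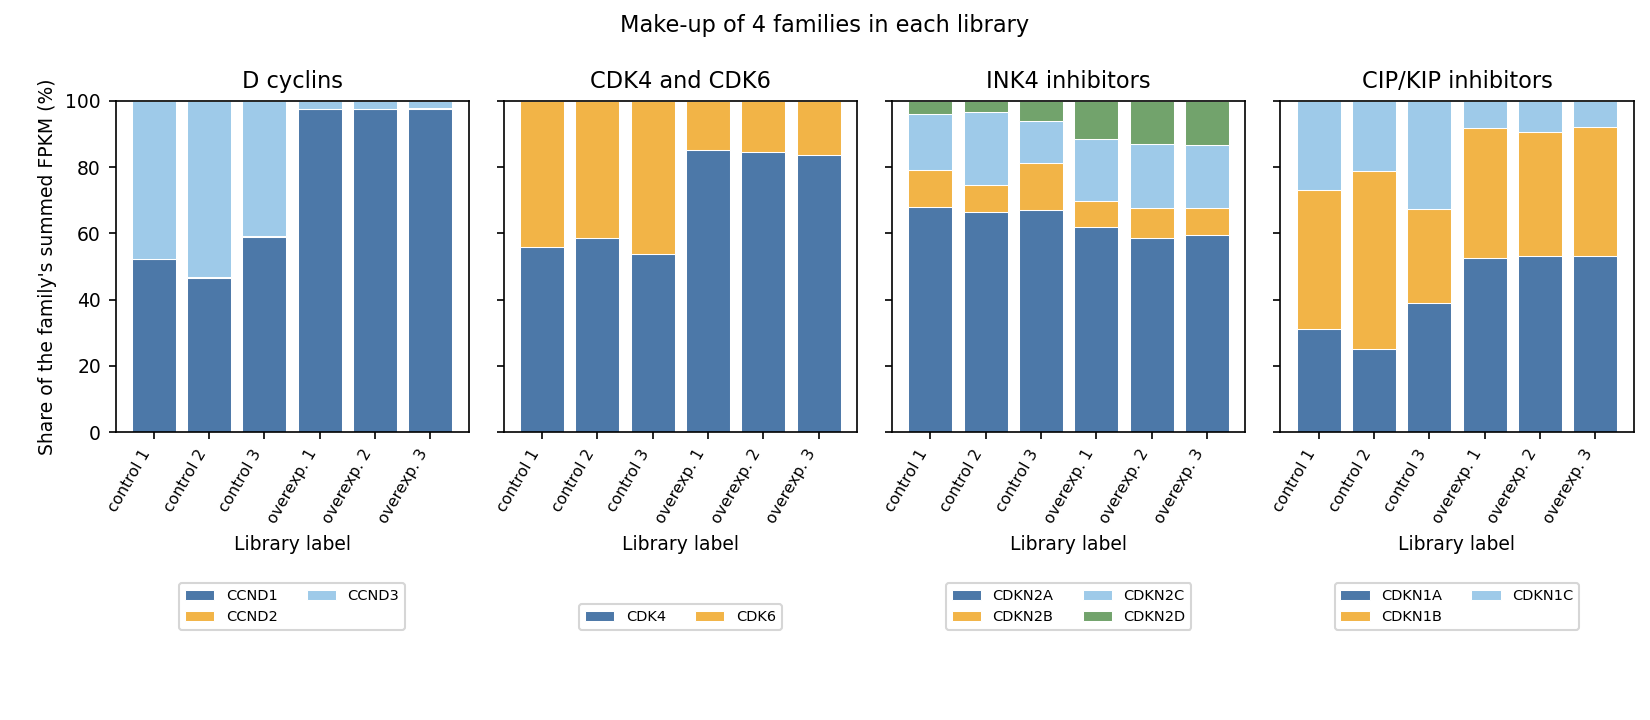
Share (%) of each gene in the summed FPKM of its family, in stacked bars that start at 0, for the 3 control-labelled and the 3 overexpression-labelled libraries. CCND3 goes from 47.3% to 2.35% of the D cyclins and CDK6 from 44.1% to 15.5% of the kinase pair, while CDKN1A goes from 31.7% to 52.98% of the CIP/KIP inhibitors (means of 3).

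The 3 INK4 members were all lower in the overexpression-labelled libraries. CDKN2A encodes p16, an INK4 inhibitor, and from another reading frame ARF; a value per gene does not separate them. CDKN2A (ENSG00000147889, chromosome 9, 21967753 to 21995301, minus strand) measured 18.8, 18.3 and 18.7 FPKM under the overexpression label and 68.9, 67.2 and 65.6 FPKM under the control label. Both groups were tight and well apart. The means, 18.6 ± 0.24 and 67.2 ± 1.7 FPKM (SD, n = 3 each), differed by a log2 fold change of -1.80 with a standard error of 0.04 (limma, adjusted p = 1.63e-07). CDKN2A was the most abundant of the 10 genes per length in the controls and the fourth in the overexpression-labelled libraries.

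CDKN2B encodes p15, an INK4 inhibitor known as a target of TGF-beta signalling, and lies beside CDKN2A. CDKN2B (ENSG00000147883, chromosome 9, 22002903 to 22009363, minus strand) measured 2.31, 2.84 and 2.497 FPKM under the overexpression label and 11.4, 8.19 and 13.6 FPKM under the control label. The controls were spread more widely, with a coefficient of variation of 24.7%, but stayed above the other group. Its log2 fold change was -1.75 with a standard error of 0.17 (limma, adjusted p = 8.92e-05), close to that of its neighbour on the scale of FPKM + 1. In plain means CDKN2B was 4.35-fold lower and CDKN2A 3.61-fold lower.

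CDKN2C encodes p18, an INK4 inhibitor from chromosome 1. CDKN2C (ENSG00000123080, chromosome 1, 50960745 to 50974633, plus strand) measured 5.74, 6.11 and 5.99 FPKM under the overexpression label and 17.05, 22.3 and 12.5 FPKM under the control label. The third control was the lowest and was still above every overexpression-labelled library. The log2 fold change was -1.36 with a standard error of 0.19 (limma, adjusted p = 4.95e-04). CDKN2D, the remaining INK4 gene, was at 3.92 ± 0.40 against 4.48 ± 1.4 FPKM (SD, n = 3 each) and did not pass (log2 fold change -0.13, limma, adjusted p = 0.524).

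Summed over the 4 INK4 genes the level was 31.0 ± 0.61 against 100.1 ± 2.1 FPKM (SD, n = 3 each). CDKN2A was 59.996 ± 1.8% of that sum under the overexpression label and 67.2 ± 0.71% in the controls. The ratio of the 3 INK4 members to the 2 kinases was 0.537, 0.581 and 0.604 against 1.25, 1.31 and 1.17, a difference of -1.11 in log2, with all 3 overexpression-labelled values below all 3 controls. Its exact permutation p was 0.1, the smallest possible. The ratio of CDKN2A to CDKN2C overlapped between the groups, with a log2 difference of -0.36 (exact permutation p = 0.3).

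Genes around CDKN2A and CDKN2B were few and low. Apart from CDKN2B, 22 protein-coding genes lie within 1 Mb of CDKN2A, and 18 of them were below 1 FPKM in every library. Of the 22, 3 were tested and all 3 were lower. MTAP, an enzyme of methionine salvage 30.1 kb away, was at 2.83 ± 0.18 against 5.15 ± 0.62 FPKM (SD, n = 3 each) with a log2 fold change of -0.68 (limma, adjusted p = 4.51e-04). KLHL9, 632 kb away, and FOCAD, 972 kb away, had log2 fold changes of -0.69 and -0.62. These 3 were lower with smaller log2 fold changes than the INK4 pair. Among neighbours below the filter, HACD4 was at 0.0143 ± 0.0037 against 1.59 ± 0.055 FPKM and DMRTA1 at 0.0170 ± 0.029 against 0.421 ± 0.25 FPKM (SD, n = 3 each). Neither was tested, so smaller differences than at the INK4 pair are shown for the 3 tested neighbours only. The antisense RNA CDKN2B-AS1, also called ANRIL, runs through this locus and had 0.393 ± 0.027 against 0.477 ± 0.13 FPKM, below the filter, with groups that overlapped.

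**Figure D3:**
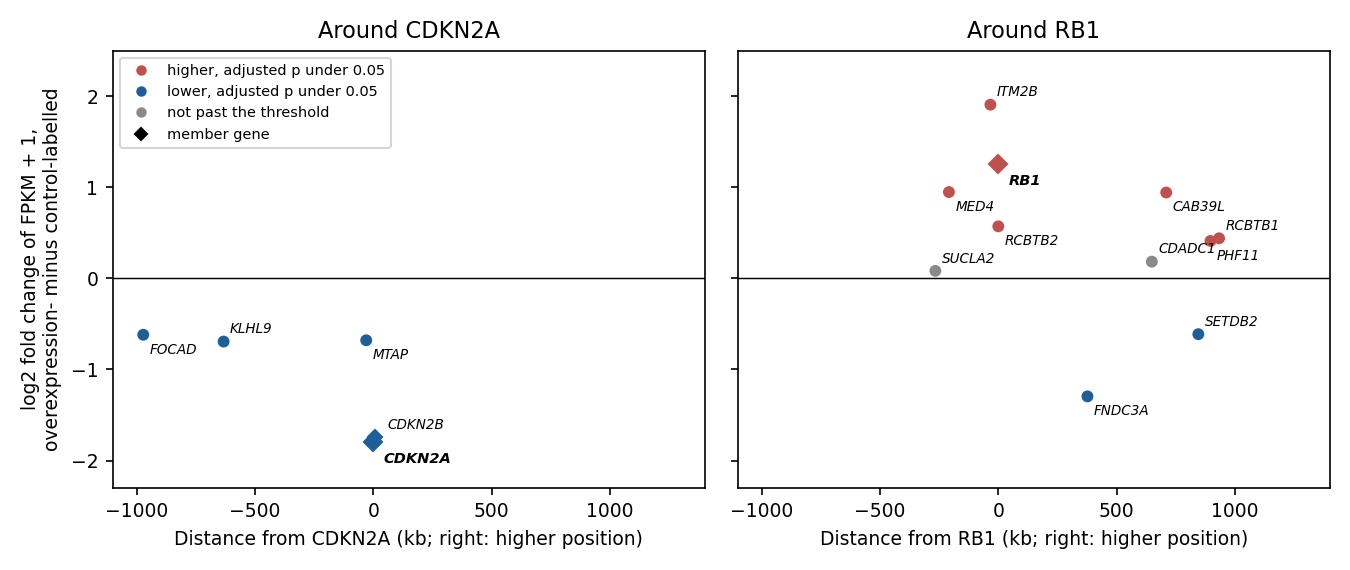
Log2 fold change of FPKM + 1 (vertical axis) against distance in kb (horizontal axis) for tested protein-coding genes within 1 Mb of CDKN2A and of RB1 (1 gene near RB1 is not drawn), with members as diamonds and colours for the call. The 3 tested neighbours of the INK4 pair lie between -0.69 and -0.62, and ITM2B, at 1.91, is the highest of the points shown around RB1.

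Of the CIP/KIP members CDKN1A was higher and CDKN1B did not pass. CDKN1A encodes p21, an inhibitor that can halt the cell cycle after stress. CDKN1A (ENSG00000124762, chromosome 6, 36676460 to 36687339, plus strand) measured 36.8, 36.2 and 37.8 FPKM under the overexpression label and 25.02, 20.4 and 33.3 FPKM under the control label. The groups did not overlap, though the third control came near. Mean levels were 36.97 ± 0.81 and 26.2 ± 6.6 FPKM (SD, n = 3 each), and the log2 fold change was 0.51 with a standard error of 0.16 (limma, adjusted p = 0.0251). The direction held in all 18 alternative settings, but the call did not. The log2 fold change of CDKN1A missed the threshold without any 1 of the overexpression-labelled libraries (limma, adjusted p from 0.0628 to 0.0717), without the first control (0.0728) and with no filter on low values (0.0567), and it was kept in 13 settings.

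CDKN1B encodes p27, the inhibitor tied to quiescence. CDKN1B (ENSG00000111276, chromosome 12, 12715058 to 12722371, plus strand) measured 27.5, 25.5 and 27.6 FPKM under the overexpression label and 33.6, 43.8 and 24.2 FPKM under the control label. The third control lay below all 3 overexpression-labelled libraries and the other 2 controls above them. The log2 fold change was -0.28 with a 95% interval from -0.75 to 0.18 and did not pass (limma, adjusted p = 0.218). The call turned on the third control. Without it the log2 fold change of CDKN1B was -0.50 and passed (adjusted p = 7.42e-03), and array weights gave -0.31 with an adjusted p of 1.42e-03. Without the second control it was -0.08 (adjusted p = 0.586). AC008115.3 overlaps CDKN1B on the same strand, so reads of the pair cannot be told apart without knowing the counting, and was at 1.84 ± 0.42 against 3.65 ± 1.4 FPKM (SD, n = 3 each).

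CDKN1C, the third CIP/KIP gene, was lower, at 5.93 ± 0.36 against 22.2 ± 5.5 FPKM (SD, n = 3 each) with a log2 fold change of -1.72 (limma, adjusted p = 8.23e-05). The CIP/KIP sum differed less than its parts, at 69.8 ± 1.6 against 82.3 ± 2.9 FPKM. CDKN1A was 52.98 ± 0.37% of it under the overexpression label and 31.7 ± 7.0% in the controls. CDKN1A was 1.34, 1.42 and 1.37 times CDKN1B under the overexpression label and 0.744, 0.465 and 1.38 times CDKN1B in the controls. Here the third control matched the other group, and the exact permutation p was 0.3.

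RB1 encodes the pocket protein that the D-cyclin kinases phosphorylate and was the member with the largest rise. RB1 (ENSG00000139687, chromosome 13, 48303726 to 48599436, plus strand) measured 17.04, 17.9 and 19.1 FPKM under the overexpression label and 7.04, 7.03 and 6.80 FPKM under the control label. All 3 overexpression-labelled libraries were well above the highest control. The mean was 2.59-fold higher, at 18.0 ± 1.0 against 6.96 ± 0.14 FPKM (SD, n = 3 each), with a log2 fold change of 1.25 and a standard error of 0.06 (limma, adjusted p = 2.51e-06).

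Of the pocket protein relatives RBL1 was lower and RBL2 did not pass. RBL1, which encodes p107, was lower at 8.64 ± 0.15 against 10.4 ± 0.47 FPKM (SD, n = 3 each; log2 fold change -0.25, limma, adjusted p = 5.43e-03; 0.0502 with voom on reads). RBL2, which encodes p130, was at 8.75 ± 0.084 against 6.94 ± 1.4 FPKM with groups that did not overlap (log2 fold change 0.31, limma, adjusted p = 0.0711). RBL2 passed as higher with recomputed FPKM (adjusted p = 0.0348), quantile normalization (0.0376), array weights (0.00523) and voom on reads (0.0179), and without the second (0.0332) or the third control (0.0244). RB1 was 50.8 ± 1.7% of the summed FPKM of the 3 genes under the overexpression label and 28.7 ± 1.9% in the controls.

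Of 14 protein-coding genes within 1 Mb of RB1, 11 were tested, of which 7 were higher, 2 lower and 2 not past the threshold. ITM2B, which encodes a membrane protein and lies 33.4 kb away, was at 21.2 ± 0.36 against 4.94 ± 0.49 FPKM (SD, n = 3 each), a log2 fold change of 1.91 (limma, adjusted p = 9.80e-07). RCBTB2 overlaps RB1 on the opposite strand and had a log2 fold change of 0.57. MED4, a Mediator subunit 209 kb away, had 0.95. LPAR6, which lies inside RB1 on the opposite strand, had 18 reads over the overexpression-labelled libraries and 2 over the controls.

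Among the 10 genes the order by level changed between the groups. By mean FPKM the overexpression-labelled libraries ran CDK4, CDKN1A, CDKN1B, CDKN2A, RB1, CCND3, CDK6, CDKN2C, CDKN2B and CCND2. The controls ran CDKN2A, CDK4, CDK6, CDKN1B, CCND3, CDKN1A, CDKN2C, CDKN2B, RB1 and CCND2. In the first order the values of neighbours overlapped for CDK4 and CDKN1A and for CDKN2A and RB1 only. In the controls CDK6, CDKN1B, CCND3, CDKN1A, CDKN2C and CDKN2B formed a run in which each gene overlapped the next, so that part of the order is not resolved.

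The spread within the groups differed too. In the controls the coefficient of variation was 28.8% for CDKN1B, 28.4% for CDKN2C, 25.04% for CDKN1A, 24.7% for CDKN2B and 18.2% for CCND3, but 2.49% for CDKN2A and 1.97% for RB1. In the overexpression-labelled libraries CDKN2B had the widest spread of the tested members, at 10.6%. Among the 5 genes of wide spread, the third control was the lowest of its group for CDKN2C, CDKN1B and CCND3 and the highest for CDKN1A and CDKN2B. Across the whole table the median SD on the log2 scale was 0.128 in the controls and 0.0592 in the other group.

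**Figure D4:**
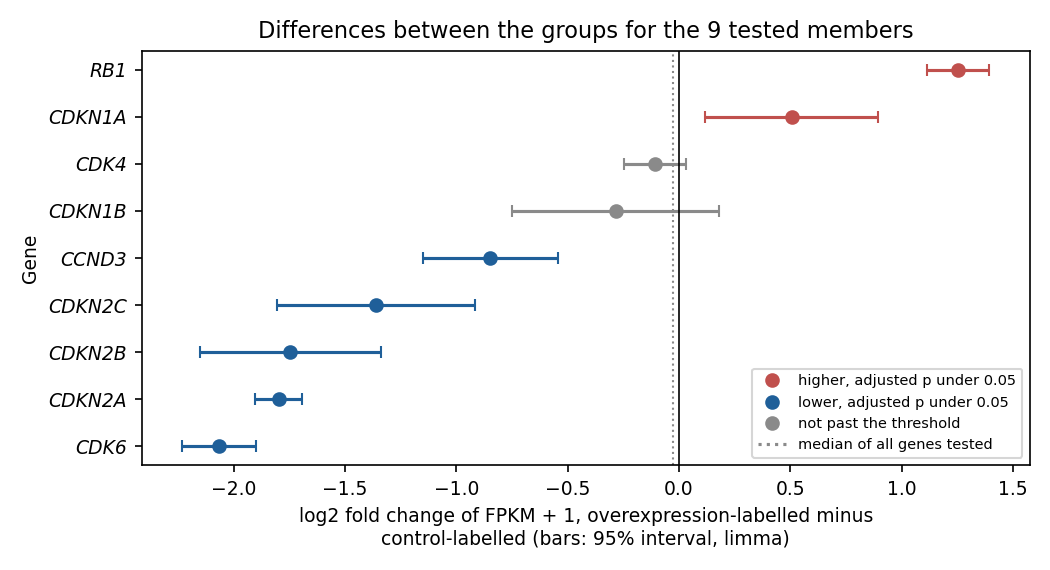
Log2 fold change of FPKM + 1, overexpression-labelled minus control-labelled, with 95% intervals from limma for the 9 tested members, and a dotted line at the median of all genes tested. RB1 (1.25) and CDKN1A (0.51) lie above 0, CDK4 and CDKN1B have intervals that include 0, and the other 5 lie between -2.07 and -0.85.

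Genes that act around the members were counted by list, each beside the 76.8% called over all genes. Of the genes for cyclin E, cyclin A and CDK2, which take over after the D cyclins, 5 of 6 were tested, with 1 higher, 2 lower and a median log2 fold change of -0.32. CDK2 was lower at 24.8 ± 0.55 against 43.5 ± 5.7 FPKM (SD, n = 3 each; log2 fold change -0.78, limma, adjusted p = 3.31e-04). CCNE1, cyclin E1, was lower with -0.46, and CCNA2, the cyclin of S phase and G2, was higher with 0.63. Of the 3 genes of the CDK-activating kinase, CCNH (-0.42) and CDK7 (-0.17) were lower and MNAT1 was at 4.99 against 5.06 FPKM. The call of CDK7 was lost in 8 settings.

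E2F and DP factors, several of which RB1 and its relatives restrain, were all tested, and of the 10 genes 2 were higher and 5 lower. E2F7, a repressor that does not bind pocket proteins, was lower with a log2 fold change of -1.17, and E2F3 and E2F2 were lower with -1.13 and -1.07. TFDP2, a partner subunit of the E2Fs, was higher with 0.96. Of 20 E2F target genes 6 were higher, 9 lower and 5 not past the threshold, with a median of -0.16. PCNA, the sliding clamp of replication, was at 213 ± 5.0 against 94.4 ± 13 FPKM (SD, n = 3 each), and MCM7, a subunit of the replicative helicase, at 206 ± 6.2 against 96.8 ± 4.1 FPKM. CDT1, which licenses replication origins, was lower at 21.8 ± 0.58 against 75.5 ± 9.8 FPKM, and GINS1 was higher with a log2 fold change of 1.10. The E2F targets thus moved in both directions. The MuvB core joins pocket proteins in the DREAM complex and at other times binds MYBL2 or FOXM1. Of these 7 genes together 6 were tested and 5 were lower, led by LIN9 of the core (-0.97) and MYBL2 (-0.96).

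Of 11 genes for the turnover of CDK inhibitors and D cyclins, 2 were higher and 6 lower, with a median of -0.49. SKP2, the subunit that marks p27 for destruction, measured 6.64, 5.83 and 6.51 FPKM under the overexpression label and 28.2, 33.9 and 24.0 FPKM under the control label. It was thus 4.54-fold lower (log2 fold change -2.01, limma, adjusted p = 9.40e-06), while CDKN1B RNA did not pass. CUL4A and DTL, parts of a ligase that acts on p21 and CDT1, were lower with -1.72 and -1.59, and FBXO4, linked to D-cyclin turnover, with -1.19. The 2 higher genes were CUL4B, with a log2 fold change of 1.06, and SKP1, with 0.62. DDB1 did not pass, with 0.01.

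All 14 regulators of the INK4 locus passed, 6 higher and 8 lower, with a median of -0.45. ID1, which holds back ETS factors at CDKN2A, was lower at 5.95 ± 0.27 against 29.6 ± 2.7 FPKM (SD, n = 3 each; log2 fold change -2.14), and ETS1 was higher at 18.6 ± 0.85 against 5.92 ± 0.25 FPKM. Of the Polycomb group, which keeps this locus silent, RING1 was lower (log2 fold change -1.47) and CBX7 higher, at 3.49 ± 0.061 against 0.956 ± 0.0996 FPKM. These genes therefore did not share a direction.

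Of 14 regulators of CDKN1A and CDKN1B transcription, 2 were higher, 9 lower and 3 not past the threshold, with a median of -0.65. KLF6, a zinc-finger activator of CDKN1A, was higher with 1.97, and its relative KLF4 lower with -2.43. SMAD4, the shared SMAD of TGF-beta signalling, was at 0.156, 0.135 and 0.0896 FPKM under the overexpression label and 4.64, 4.39 and 4.53 FPKM under the control label, a log2 fold change of -2.29 (limma, adjusted p = 3.94e-07). FOXO1, a factor that turns on CDKN1B, was lower with -1.75.

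**Figure D5:**
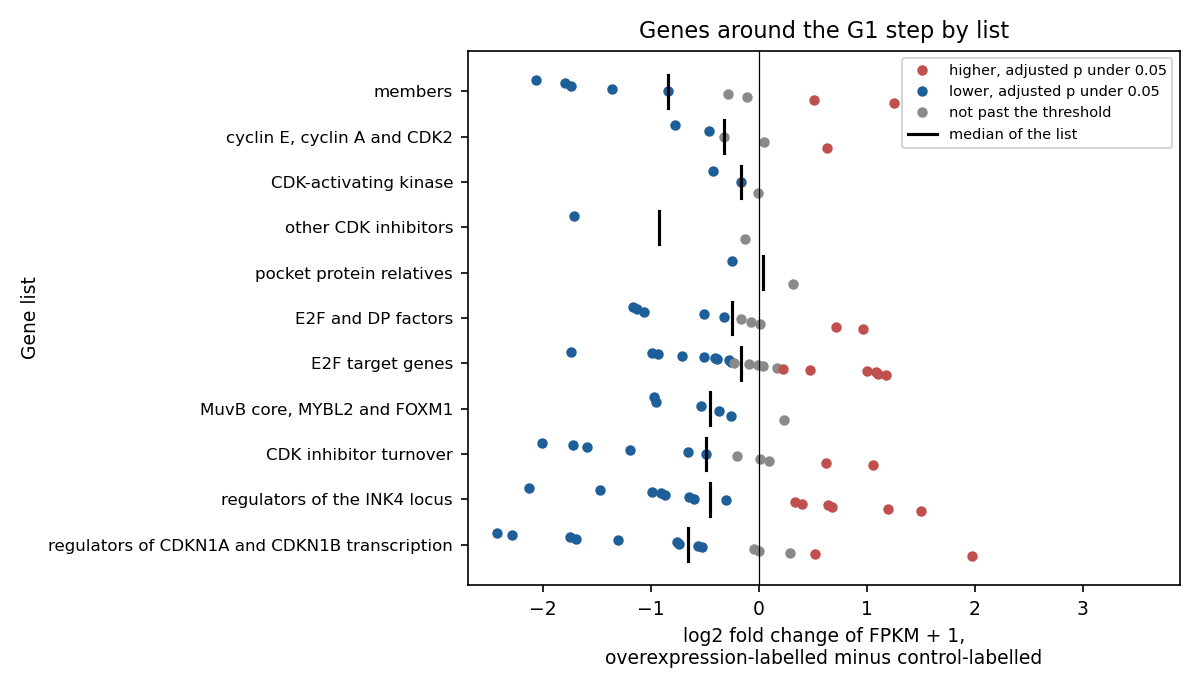
Log2 fold change of FPKM + 1 of each tested gene in the lists around the G1 step (points, coloured by call) with the median of each list (bars). The members have a median of -0.85, the E2F targets of -0.16 and the regulators of CDKN1A and CDKN1B of -0.65, and every list with at least 9 tested genes holds genes that were higher and genes that were lower.

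By the smallest distance between centred values of log2(FPKM + 1) over the 6 libraries, among 11312 protein-coding genes tested, the patterns most like that of RB1 were DNM1 (distance 0.0739), RFXAP (0.0842) and HIST4H4 (0.0947). Those most like CDK6 were PC (0.0733), LRRN2 (0.0769) and ACBD5 (0.0771). The added 1 FPKM shrinks differences of low genes, so likeness on this scale is not likeness in fold. LRRN2 was at 0.0329 against 3.43 FPKM on average, 104-fold lower beside 4.64-fold for CDK6, and HIST4H4 was 4.98-fold higher beside 2.59-fold for RB1. PC was closer, at 7.29, 6.67 and 7.03 FPKM under the overexpression label and 32.7, 30.8 and 35.2 FPKM under the control label.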

How the data were processed

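The authors deposited FPKM for each gene in each of the 6 libraries, beside the length of the gene. No aligner or counter was given in the sources used here. The submitters' processing notes name the mouse build mm10, but all 58735 identifiers matched human GENCODE release 29 on GRCh38, whose coordinates are used. Multiplying FPKM by gene length and dividing by the smallest such product above 0 in a library, taken as 1 read, gave whole reads within 0.001 for 100% of values above 0 in each library. The read total implied by FPKM was 1.04 to 1.05 times the summed reads in the overexpression-labelled libraries. In the controls it was 0.958 to 0.995 times, so this scaling ran with the label. FPKM recomputed on the sum of reads moved the median log2 fold change of all genes by 0.0959, which matters for changes as small as that of CDK4. There were 0 further columns of per-sample values. The 95% intervals are limma's and rest on the spread between libraries.

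Genes whose mean reached 1 FPKM were tested with limma 3.58.1 (R 4.3.3) on log2(FPKM + 1) with a variance trend, two-sided, with Benjamini-Hochberg adjustment over all genes and a threshold of 0.05; this scale understates changes of low genes. Within-library ratios (pseudocount 0.1) had exact permutation tests. Of these steps only the limma calls were tested on simulated reads. Few genes were changed there and both groups had the same spread, unlike in these data.

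The members and the gene lists were chosen with earlier results of these data known. Named were the members, DDX39B, up to 4 called genes per list by size of change (2 by level where none passed), genes overlapping or beside a member, the 4 nearest tested genes around CDKN2A and RB1, and 3 genes of most similar pattern each for RB1 and CDK6; a gene near RB1 is not reported here. CDKN2D, RBL2, MNAT1, MARCH9, AC008115.3, HACD4, DMRTA1, CUL4B, SKP1, DDB1, KRT8, KRT18, KRT20, LUM, VWF, CDX1, CD3D, MS4A1, FCGR3A, KDR and EMCN were picked after seeing their values. The alternatives varied the pseudocount, filter, scaling, variance model, genes tested, replicate block and test, and left out each library.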

Additional observations from a re-analysis of the deposited data

How the results depend on the processing

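Over 18 alternative settings CCND3, CDK6, CDKN2A, CDKN2B, CDKN2C and RB1 kept their direction and call, while CDKN1A kept its direction only. The members called higher were 1 with no filter and 1 to 2 with 1 library left out. CDK4 turned to 0.026 under quantile normalization (limma, adjusted p = 0.672). All genes called were 10726, 6218 with a filter at 5 FPKM, and 15105 of 33913 (44.5%) with no filter. Array weights called 12517 genes (89.6%), and their estimation gave a convergence warning, so calls that rest on that setting are weak. Voom on the reads moved the median of all genes by 0.104 in log2, the other scalings by less. The replicate block called 10506 genes; same-numbered libraries correlated at -0.00592, -0.0217 and 0.00746, so the numbers did not pair them, and the block changed no call among the members. Of the CDK-activating kinase genes 1 instead of 2 was called with the filter at 5 FPKM, recomputed FPKM, quantile normalization, the replicate block and voom, and 1 to 2 with 1 library left out. Of the pocket protein relatives 2 instead of 1 (RBL2, higher, besides RBL1) were called with recomputed FPKM, quantile normalization and array weights, and 1 to 2 with 1 library left out. Of the fixed list of 13 RNAs and genes beside members, 8 were found by symbol and 2, MTAP and TSPAN31, were tested in the main analysis. Of these 2 tested, 1 (MTAP) was called. From the same list 2 were called with no filter, 0 with the filter at 5 FPKM and 2 with array weights. Fibroblast markers called, 1 in the main analysis, were 5 with no filter, 0 with the filter at 5 FPKM and 2 with TPM, and endothelial markers 4 with no filter and 2 with TPM. Near CDKN2A 5 genes were called with no filter and 1 with the filter at 5 FPKM, where 5 were called near RB1. The log2 fold change of TSPAN31, at 0.03, ranged from -0.0097 to 0.077 with 1 library left out. The 5 ratios kept their direction in all 7 alternatives. The causes of these changes, beyond the genes or libraries that a setting leaves out, were not tested. Depth limits CCND2, with 8 to 38 reads per library.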
